A study of Mus musculus with 8 samples.

Results

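Transcripts of 6 genes of the sperm tail midpiece and its surroundings, Odf1, Odf2, Odf3, Odf4, Oaz3 and Smcp, were followed in whole testes of mice at the age of 27 days. Every probe set that the platform annotation gave 1 of these symbols was taken, which made 18 of the 45101 probe sets on the array: 3 for Odf1, 5 for Odf2, 2 for Odf3, 1 for Odf4, 6 for Oaz3 and 1 for Smcp. The tested animals were 4 mice labelled as mutant (MT, Brwd1-/-), and the controls were 4 mice titled wild type, whose genotype entry nevertheless reads Brwd1+/-, so that they may carry a mutant copy; they are called wild type here. Brwd1 encodes a protein with bromodomains and WD repeats, the labels do not describe the mutation, and no mouse was treated. Each mouse gave 1 array, and the design sets mutant testes against controls at an age when the most advanced germ cells are developing spermatids.

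Outer dense fibres are stiff rods that run along the microtubule core of the sperm tail, and the mitochondrial sheath is the helix of mitochondria wrapped around them in the midpiece. Both are built while spermatids elongate, from proteins whose messages are made in spermatids and in many cases stored before they are translated. Odf1 is a major cysteine-rich fibre protein, Odf2 is a coiled-coil fibre protein that in other cells sits on the appendages of the mother centriole, and Odf3 and Odf4 are further proteins of the tail named for the fibres. Oaz3 is the testis antizyme, a germ cell relative of the antizymes that restrain ornithine decarboxylase and so polyamine synthesis, and Smcp is a cysteine-rich protein of the sperm mitochondrial capsule whose message is stored in round spermatids.

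The genes lie on different chromosomes apart from Oaz3 and Smcp: Odf1 on chromosome 15, Odf2 on 2, Odf3 on 7, Odf4 on 11, and Oaz3 and Smcp both on 3 (RefSeq, assembly GRCm38.p6). RefSeq promoter windows of that build, from 250 bases before to 50 bases after each start, were matched for 4 of the 6 genes. The last 100 bases before the start are shown, with CG dinucleotides in capitals, because the genes differ in how many they hold. For Odf2, which has 4 windows, the most upstream is shown.
Smcp, chr3:92589074-92589173, minus strand: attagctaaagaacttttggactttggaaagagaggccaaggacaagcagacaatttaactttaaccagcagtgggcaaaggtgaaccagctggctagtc
Odf3, chr7:140847816-140847915, plus strand: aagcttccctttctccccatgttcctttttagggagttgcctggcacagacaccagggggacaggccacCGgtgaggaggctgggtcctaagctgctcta
Odf4, chr11:68927082-68927181, minus strand: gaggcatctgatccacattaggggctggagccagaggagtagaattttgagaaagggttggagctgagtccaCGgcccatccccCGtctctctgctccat
Odf2, chr2:29889620-29889719, plus strand: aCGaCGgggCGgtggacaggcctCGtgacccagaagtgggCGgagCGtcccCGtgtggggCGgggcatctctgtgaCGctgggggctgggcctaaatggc
Over the 250 bases before the start, the Smcp window held 0 CG dinucleotides, Odf3 held 1, Odf4 held 2, and the 4 Odf2 windows held 22 to 35, where the median of all 32851 windows was 6. The GC share of the same bases was 38.0% for Smcp, 53.6% for Odf3, 49.6% for Odf4 and 68.4% to 72.8% for Odf2, against a median of 52.4%. The letters TGACG, searched on both strands of these bases as the short form of a cAMP response element, occurred at 2 distinct sites of Odf2, both shared by its first and second windows, which overlap, and in no other member window, and 17.8% of all windows held them.

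The deposited intensities are linear and scaled so that every array had a trimmed mean of 500.0, and they were analysed as log2(intensity + 16), the scale of every log2 value below. Of the 18 probe sets, 16 lay above a filter at the 40th percentile of mean intensity and were tested with limma among 27022 probe sets. Brwd1 itself was not called on any of its 4 tested probe sets; the brightest read 236, 134, 525 and 519 in mutants and 226, 207, 396 and 528 in wild type. Replicates 3 and 4 of both genotypes were lower than replicates 1 and 2 on 17.6% of probe sets and higher on 23.3% (limma). The 10 measured epididymis markers summed to 89112 and 96890.2 in mutant replicates 3 and 4, against 6438 and 5544 in mutant replicates 1 and 2, and to 80028 and 80996 against 8485 and 4530.5 in the same wild-type replicates. Genotype was fitted in 3 ways, unblocked, blocked by replicate number (replicate block) and blocked by these batches (batch block); what the batches stand for is not in the labels. Mutant replicate 1 stood apart from the other mutants on spermatid genes. Values without it are therefore given for Odf1, Odf3, Oaz3 and Smcp. They are also given for list genes with a printed log2 difference that this mouse moved by over 1.5 times in fold. The batch-blocked fit without this mouse was added after the data were seen, so its adjusted p-values are not an independent test. The 10 spermatid markers, a list fixed for this comparison with earlier results known, summed to 2966, 21498, 10743 and 19398 in mutant replicates 1 to 4 and to between 64014 and 112989.9 in wild type. Prm1, Prm2, Tnp1 and Tnp2 carry most of these sums. Their wild-type means lay between 12814 and 24319, where no other marker averaged above 3691. In a whole testis, fewer cells of a type and less RNA per cell cannot be told apart, and the part of this marker shift in the values below was not tested.

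Across the group, 9 of the 16 tested probe sets had all 4 mutant values below all 4 wild-type values, where 3.83% of all probe sets did, and none had them all above, where 2.26% did. Without a block no member passed an adjusted p of 0.05 (limma), and 0.115% of all probe sets were called lower. At an unadjusted p under 0.05 there were 10 of 16 members and 7.43% of all probe sets in that fit. With the replicate block 6 of 16 fell and none rose, where 2.18% of all probe sets fell and 0.215% rose. With the batch block 4 of 16 fell and none rose, where 1.48% of all probe sets fell and 0.311% rose. When mutant replicate 1 was also dropped from the batch-blocked fit, 8 of 16 fell and none rose, where 2.29% of all probe sets fell and 0.3% rose. This fit was added after the data were seen, and dropping that mouse without a block called 0 members. Because the 16 probe sets read only 6 genes, several repeat the same gene and are not independent. Those called belonged to 3 genes under either block, and to 5 genes once that mouse was dropped from the batch-blocked fit. The 9 without overlap belonged to Odf1, Odf2, Odf3, Oaz3 and Smcp. The median log2 difference over the 16 was -0.89, and over all probe sets it was 0.07. The members thus ranged widely, from a log2 difference of -2.07 for Oaz3 to 0.13 for a minor Odf2 probe set.

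**Figure D1:**
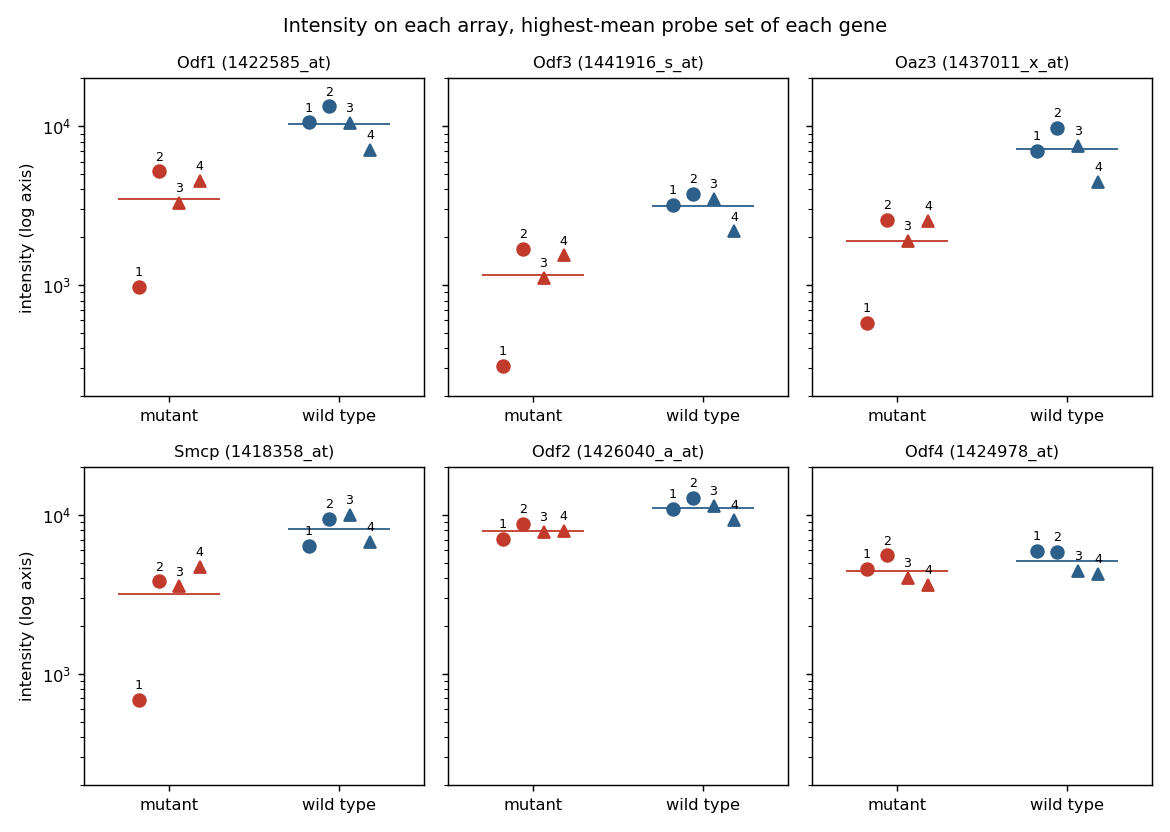
Intensity on each array (log axis, the same range in every panel) for the highest-mean probe set of each gene, with mutants in red on the left and wild type in blue on the right; circles are replicates 1 and 2, triangles replicates 3 and 4, numbers the replicate and lines the mean of 4. Mutant and wild-type values are apart for Odf1, Odf3, Oaz3, Smcp and Odf2 and overlap for Odf4, and mutant replicate 1 is far below the other mutants for Odf1, Odf3, Oaz3 and Smcp; levels of different probe sets cannot be set against each other.

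Odf1, the main fibre protein gene, was read by 3 probe sets. On the brightest, 1422585_at, the 4 mutants read 969.5, 5201, 3280.1 and 4506, and the 4 wild-type mice read 10564, 13339, 10496 and 7110.3. The groups did not overlap, and the lowest wild-type mouse, replicate 4, was still above the highest mutant, replicate 2. Means were 3489 ± 1858 in mutants and 10377 ± 2549 in wild type (SD, n = 4 each), so mutants held 33.6% of the wild-type mean. The unblocked log2 difference was -1.78 ± 0.48 (SE), at an adjusted p of 0.209 (limma), and Odf1 fell with the replicate block (limma, adjusted p = 0.0434). With the batch block its adjusted p was 0.087, and without mutant replicate 1 that fit gave -1.17 (limma, adjusted p = 0.00261). Without a block and without that mouse the adjusted p was 0.082 (limma).

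The 2 other Odf1 probe sets, whose suffix _x_at marks probes that may also match other transcripts, were dimmer. On 1440821_x_at mutants read 109, 429, 264 and 325, and wild type read 911, 1418, 817 and 647. These groups were apart as well, with the same log2 difference of -1.78, and this probe set fell under both blocks (limma, adjusted p = 0.0186 by replicate and 0.0454 by batch). On 1457659_x_at mutants read 238, 796, 553 and 792, and wild type read 1749, 1888, 1243 and 795. Here wild-type replicate 4 lay just under mutant replicate 2, so the groups met, and the log2 difference of -1.30 was not called in any of the 3 fits with all mice (limma, lowest adjusted p = 0.127).

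Odf3 encodes a protein known as Shippo 1 and was read by 2 probe sets that gave nearly the same picture. On 1441916_s_at mutants read 309, 1684, 1113 and 1538, and wild type read 3181, 3729, 3475 and 2178. On 1420446_at mutants read 243, 1158, 874 and 1267, and wild type read 2265, 3089.8, 2315 and 1533. Neither pair of groups overlapped, and the mutant means were 37.0% and 38.5% of the wild-type means. Their log2 differences of -1.64 and -1.55 did not pass with all mice, the adjusted p-values being 0.263 and 0.304 unblocked, 0.0659 and 0.0767 blocked by replicate and 0.112 and 0.131 blocked by batch (limma). With the batch block and without mutant replicate 1 both fell, by less, with log2 differences of -1.05 and -0.97 (limma, adjusted p = 0.00828 and 0.0217). Without a block and without that mouse the adjusted p-values were 0.104 and 0.172 (limma).

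Odf4, a membrane protein gene of the tail also called Oppo 1, had the smallest difference of the named fibre genes on their brightest probe sets. On 1424978_at mutants read 4548, 5561, 4006 and 3649, and wild type read 5915, 5889, 4427 and 4243. The groups overlapped, since mutant replicates 1 and 2 exceeded wild-type replicates 3 and 4. Means were 4441 ± 833 in mutants and 5119 ± 908 in wild type (SD, n = 4 each), 86.8% of wild type. The log2 difference was -0.21, with a 95% interval from -0.60 to 0.19 without a block and from -0.39 to -0.02 with the batch block, and the adjusted p was 0.995, 0.331 and 0.292 unblocked, blocked by replicate and blocked by batch (limma). Mutant replicate 1, the lowest mouse for Odf1 and Odf3, was the second highest mutant for Odf4.

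Odf2 was read by 5 probe sets, of which the 2 brightest were lower in mutants. On 1426040_a_at mutants read 7072, 8757, 7845 and 7929, and wild type read 10894, 12814, 11366 and 9355. On 1435216_a_at mutants read 6499.8, 8124, 8201 and 8719.6, and wild type read 9653, 11104, 11945 and 9775. Neither overlapped, and the suffix _a_at marks probes that read several transcripts of a gene. The mutant means were 71.1% and 74.3% of wild type, and the log2 differences were -0.49 and -0.43. Both fell with the replicate block (limma, adjusted p = 0.0239 and 0.0405), the first also under the batch block (0.0432, where the second had 0.0602), and neither without a block (0.176 and 0.252).

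The 3 dimmer Odf2 probe sets were not called. On 1454735_at mutants read 2696, 2726, 2905 and 2762, and wild type read 2269, 2609, 2473 and 3029.8. The log2 difference was 0.10, with a 95% interval from -0.17 to 0.38 (limma, adjusted p = 0.999), which does not reach the values of the bright probe sets. The weak 1439918_at averaged 483 in mutants and 437 in wild type, and 1444101_at averaged 131 in mutants and 121 in wild type, both with overlapping groups and adjusted p-values of 0.999 without a block (limma). The 95% interval of 1444101_at, -0.68 to 0.82, includes the values of the bright probe sets. Which Odf2 transcripts each probe set reads is not given in the sources used here.

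Oaz3, the testis antizyme gene, had the largest difference of the 6 genes. On 1437011_x_at mutants read 578, 2587, 1888 and 2528, and wild type read 6999, 9765, 7502 and 4465. On 1437010_a_at mutants read 392, 1543, 875 and 1076, and wild type read 3421, 4556, 3515 and 1855. Both probe sets separated the genotypes without overlap, with mutant means at 26.4% and 29.1% of wild type. Unblocked, the log2 differences were -2.07 ± 0.46 and -1.85 ± 0.41 (SE), at adjusted p-values of 0.133 and 0.136 (limma). Both fell under the replicate block (limma, adjusted p = 0.024 and 0.0226) and under the batch block (0.047 for each), and without mutant replicate 1 the batch-blocked differences were -1.51 and -1.37.

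The 4 other Oaz3 probe sets were dim. The 2 that were tested, 1453115_at and 1432571_at, averaged 104 and 62.1 in mutants and 114 and 86.6 in wild type, with overlapping groups and log2 differences of -0.22 and -0.46 (limma, adjusted p = 0.999 and 0.902). The 2 below the filter, 1429341_at and 1454279_at, averaged 47.5 and 11.6 in mutants and 19.8 and 10.5 in wild type and were not tested. Detection calls are not used here, so the distance of such readings from background is unknown.

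Smcp, the mitochondrial capsule gene, was read by a single probe set, 1418358_at. Mutants read 686, 3816, 3550.5 and 4694, and wild type read 6420.5, 9447, 10009 and 6749. The groups did not overlap, and mutant replicate 1 was far below the other 3 mutants. Means were 3187 ± 1737 in mutants and 8157 ± 1834 in wild type (SD, n = 4 each), 39.1% of wild type. The log2 difference was -1.63 ± 0.54 (SE, unblocked) and missed the threshold in each fit with all mice, at an adjusted p of 0.37 unblocked, 0.0523 blocked by replicate and 0.124 blocked by batch (limma). With the batch block and without mutant replicate 1 Smcp fell, with a log2 difference of -1.01 (limma, adjusted p = 0.00894). Without a block and without that mouse its adjusted p was 0.0897 (limma).

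**Figure D2:**
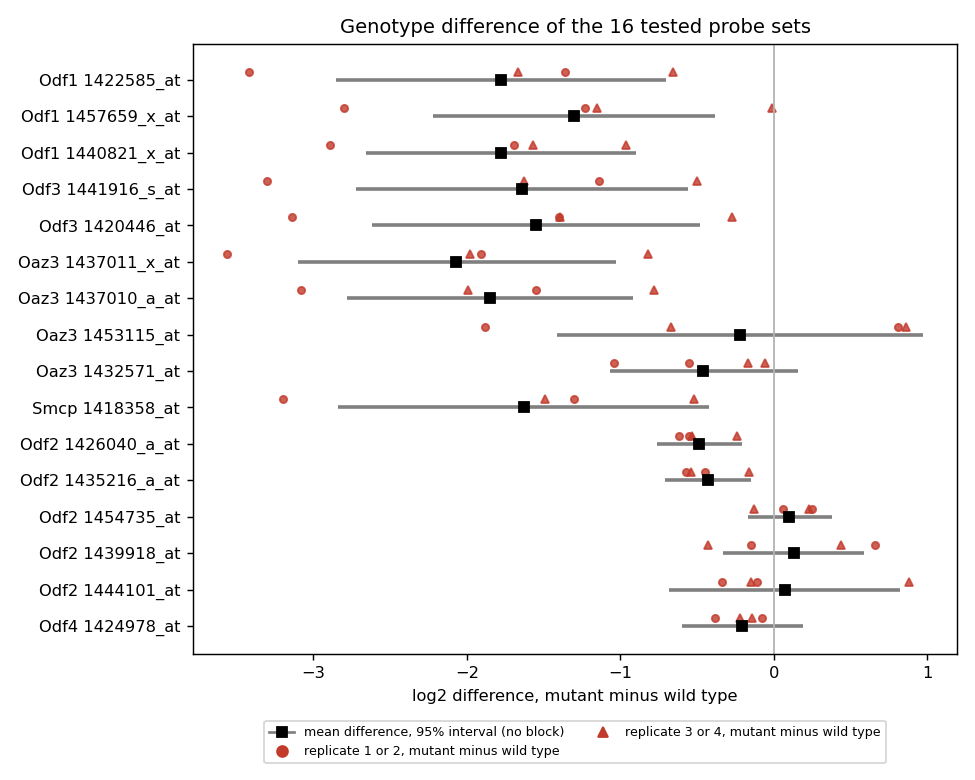
Log2 difference, mutant minus wild type, for the 16 tested probe sets; squares are the mean over 4 mice a group, bars its 95% interval without a block, and red symbols the difference between mice of the same replicate number (circles for 1 and 2, triangles for 3 and 4). For Odf1, Odf3, bright Oaz3 probe sets and Smcp the pair numbered 1 is farthest from 0 and the pair numbered 4 nearest to it, while the pairs of Odf4 lie between -0.38 and -0.08 and those of each dimmer Odf2 probe set fall on both sides of 0, up to 0.88.

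The size of the difference depended on the mice compared. For Odf1 on 1422585_at the mutant minus wild-type difference was -3.42 between mice numbered 1, -1.36 between mice numbered 2, -1.67 between mice numbered 3 and -0.66 between mice numbered 4. For Smcp the same 4 differences were -3.20, -1.30, -1.49 and -0.52. Every pair was thus in the same direction, with pair 1 set by a low mutant and pair 4 by a wild-type mouse below the others for Odf1. Within replicates 3 and 4 the differences were -1.16 for Odf1, -1.06 for Odf3 (1441916_s_at), -1.40 for Oaz3 (1437011_x_at), -1.01 for Smcp, -0.39 for Odf2 (1426040_a_at) and -0.18 for Odf4. Within replicates 1 and 2 they were -2.39, -2.22, -2.74, -2.25, -0.59 and -0.23 for the same genes in the same order. No member differed between the batches in its genotype difference (limma interaction term, lowest adjusted p = 0.789), and 0% of all probe sets did in either direction; a p that misses the threshold does not show that the batches responded alike.

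Between the batches, 1 of the 16 members was called lower in replicates 3 and 4 and none higher, where 17.6% and 23.3% of all probe sets were. This was Odf4. It read 4006, 3649, 4427 and 4243 in replicates 3 and 4 and 4548, 5561, 5915 and 5889 in replicates 1 and 2, so that the batches did not overlap, and the batch term was -0.42 ± 0.08 (SE, limma, adjusted p = 0.00353). For Odf1, Odf3, Oaz3 and Smcp the batch term on the brightest probe set lay between 0.15 and 0.70 and was not called (limma, lowest adjusted p = 0.255).

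**Figure D3:**
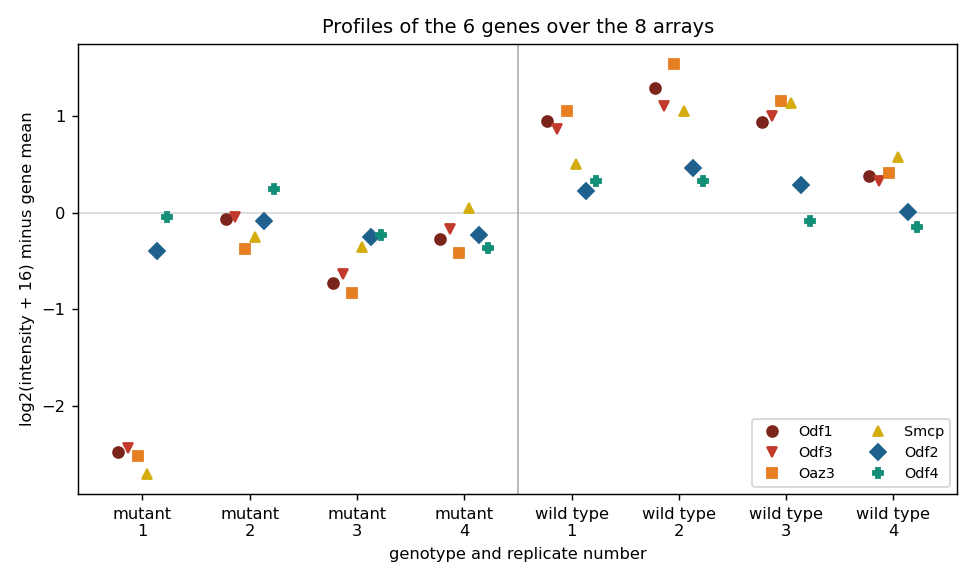
Profile of each gene over the 8 arrays as log2(intensity + 16) minus the gene's mean (vertical axis), on its brightest probe set, by genotype and replicate number (horizontal axis). Odf1, Odf3, Oaz3 and Smcp are lowest in mutant replicate 1 and above their means in all 4 wild-type mice, while Odf2 and Odf4 keep within a narrow band.

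Pairs of the 6 genes were compared in their profiles over the arrays and in the size of their genotype difference. On profiles centred on each gene's mean, the root mean square difference over the 8 arrays was 0.095 log2 units between Odf1 and Odf3, 0.173 between Odf1 and Oaz3 and 0.288 between Odf1 and Smcp. It was 0.890 between Odf1 and Odf2, 1.054 between Odf1 and Odf4 and 0.235 between Odf2 and Odf4. This measure is smaller for genes that move little. The median of 22308 named probe sets outside the group lay 1.23 from Odf1, 0.44 from Odf2 and 0.38 from Odf4. The response of Odf1 minus that of Odf4 was -1.57, and that of Odf3 minus that of Odf4 was -1.44, each with an exact permutation p of 0.0286 and an adjusted p of 0.0536 over the 15 pairs of genes. In all, 8 of the 15 pairs reached this smallest p that the 70 regroupings of 8 mice allow (two-sided), and none passed 0.05 after adjustment. At this floor no pair could pass alone, whatever the size of its difference, so a miss does not show equal responses.

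Among the genes with larger differences, no pair passed after adjustment either. Odf1 minus Oaz3 differed by 0.29 between the genotypes and Odf3 minus Oaz3 by 0.43, both without overlap between mutant and wild-type mice (exact permutation p = 0.0286, adjusted p = 0.0536 for each). Without mutant replicate 1 the values were 0.33 and 0.47. Both comparisons used Oaz3 1437011_x_at, whose suffix marks probes that may also match other transcripts. The other bright Oaz3 probe set, 1437010_a_at, had a smaller log2 difference (-1.85 against -2.07) and was not compared with Odf1 or Odf3. Odf1 and Smcp, and Odf3 and Smcp, responded with differences of -0.15 and -0.01 between them (exact permutation p = 0.486 and 0.971). Among probe sets of the same gene, 3 of 20 pairs reached the smallest p, all of Odf2, and none passed after adjustment (exact permutation p = 0.0286, adjusted p = 0.163 for each). These were 1426040_a_at minus 1439918_at (-0.61 between the genotypes, -0.42 without mutant replicate 1), 1435216_a_at minus 1439918_at (-0.56 and -0.33) and 1435216_a_at minus 1454735_at (-0.53 and -0.46). The groups overlapped for 1426040_a_at minus 1454735_at (-0.59, exact permutation p = 0.0571). Among these 20 pairs too, none could pass alone at the smallest p, so a miss does not show that probe sets agree.

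Genes with the most similar profiles were looked up among 22308 named probe sets outside the group, by the same root mean square difference over the 8 arrays. Nearest to Odf1 were Samd4 (0.072 log2 units), Cypt1 (0.083) and Ropn1 (0.084), the last a gene of the fibrous sheath, where the median probe set was 1.23 away. Ropn1 (0.086), Arrdc5 (0.096) and Tex33 (0.104) were nearest to Odf3. Fam166a (0.060), H1f7, a spermatid linker histone gene (0.073), and Prm3, a protamine gene (0.097), were nearest to Oaz3. Trim36 (0.072), Prr30 (0.101) and Klhl10, a ubiquitin ligase adaptor gene of spermatids (0.107), were nearest to Smcp. Odf2 and Odf4 had other neighbours. Ube2k, a ubiquitin-conjugating enzyme gene (0.023), Pudp (0.048) and Cyp51, an enzyme gene of sterol synthesis (0.055), were nearest to Odf2, and Styxl1 (0.039), Actr8 (0.064) and Pcmt1 (0.066) to Odf4. The median probe set was only 0.44 away from Odf2 and 0.38 away from Odf4.

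Among 20 measured relatives and partners of the fibre proteins, 5 fell with the replicate block, 4 with the batch block and none without a block, and none rose in these fits (median log2 difference -0.34). Odf3b, a close relative of Odf3, averaged 114 in mutants and 360.2 in wild type on its brightest probe set (log2 difference -1.49, limma adjusted p = 0.00824 by replicate and 0.00932 by batch), and its weaker 1443671_x_at also fell without a block (limma, adjusted p = 0.0293). Klc3, a kinesin light chain that binds the fibres, had a log2 difference of -1.44, Txndc2, a sperm thioredoxin, one of -2.75 and Spata6, a gene of the tail's connecting piece, one of -1.04, and each fell with both blocks. The 2 other tested probe sets of Spata6 gave -0.16 and 0.09 and were not called. Spag4, whose protein binds Odf1, had a log2 difference of -1.49 and fell under the replicate block only (limma, adjusted p = 0.0427, against 0.0819 by batch). Without mutant replicate 1 the unblocked list median was -0.18 and Txndc2 stood at -2.15. Tekt4, Rnf19a and Hspb1, named for their high signal, had log2 differences of -0.52, -0.39 and 0.24 and were not called.

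Of 17 measured genes tied to the mitochondrial sheath, none fell without a block, 3 when blocked by replicate, 1 when blocked by batch and 5 when blocked by batch without mutant replicate 1, while the list's median of -0.07 lay near that of all probe sets. Spata19 and Spata18, both of sperm mitochondria, had log2 differences of -2.18 and -2.76 (limma, adjusted p = 0.032 and 0.0079 with the replicate block), and Spata18 also fell with the batch block (0.0125, against 0.0547 for Spata19). Septin4, a gene of the ring at the end of the midpiece, had one of -1.01 and fell with the replicate block (adjusted p = 0.0426), and its weaker probe set fell under both (0.0294 by replicate and 0.0394 by batch). Armc12 and Tbc1d21, singled out after their values were seen as genes needed to lay the sheath in mice, had log2 differences of -1.71 and -1.70 without overlap and without a call in the 3 fits with all mice. Of all probe sets, 3.83% had every mutant value below every wild-type value. Gk2, on the same list, had a log2 difference of -0.10 with overlapping groups, so these picked genes do not stand for the list. Without mutant replicate 1 the unblocked difference was -0.95 for Tbc1d21 and -1.56 for Spata19. The abundant mitochondrial genes Cox6b2, Vdac2 and Gpx4 differed little, with Cox6b2 at 18269.7 in mutants and 19699 in wild type, Vdac2 at 17549.7 in mutants and 16859 in wild type and Gpx4 at 16797 in mutants and 17643 in wild type, and none was called. Gpx4 encodes a selenoenzyme that becomes a structural part of the capsule in which Smcp lies.

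Of 9 measured genes of the fibrous sheath, which surrounds the tail behind the midpiece, none fell without a block, 3 when blocked by replicate, 2 when blocked by batch and 4 when blocked by batch without mutant replicate 1. The list median was -1.30, and -0.83 without that mouse. Akap4 (log2 difference -2.62) and Gapdhs (-1.92) fell with both blocks, and Ropn1 (-1.69) with the replicate block. Akap4 stood at -1.90 without mutant replicate 1, unblocked. Gstm5, Ropn1l and Spa17 had log2 differences of 0.00, -0.05 and -0.30 and were not called. Around Oaz3, 1 of 11 measured polyamine genes was called under a block and none without one: Azin2, the gene of an antizyme inhibitor found in testis, averaged 223 in mutants and 657 in wild type and fell under both blocks (limma, adjusted p = 0.00993 by replicate and 0.021 by batch), while its weaker probe set had a log2 difference of -0.10. The general antizyme genes Oaz1 and Oaz2 and the ornithine decarboxylase gene Odc1 had log2 differences of 0.10, 0.14 and -0.15 and were not called. Of 19 measured genes of centriole appendages, where Odf2 works in other cells, none was called in any of these 3 fits, with a list median of -0.05.

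**Figure D4:**
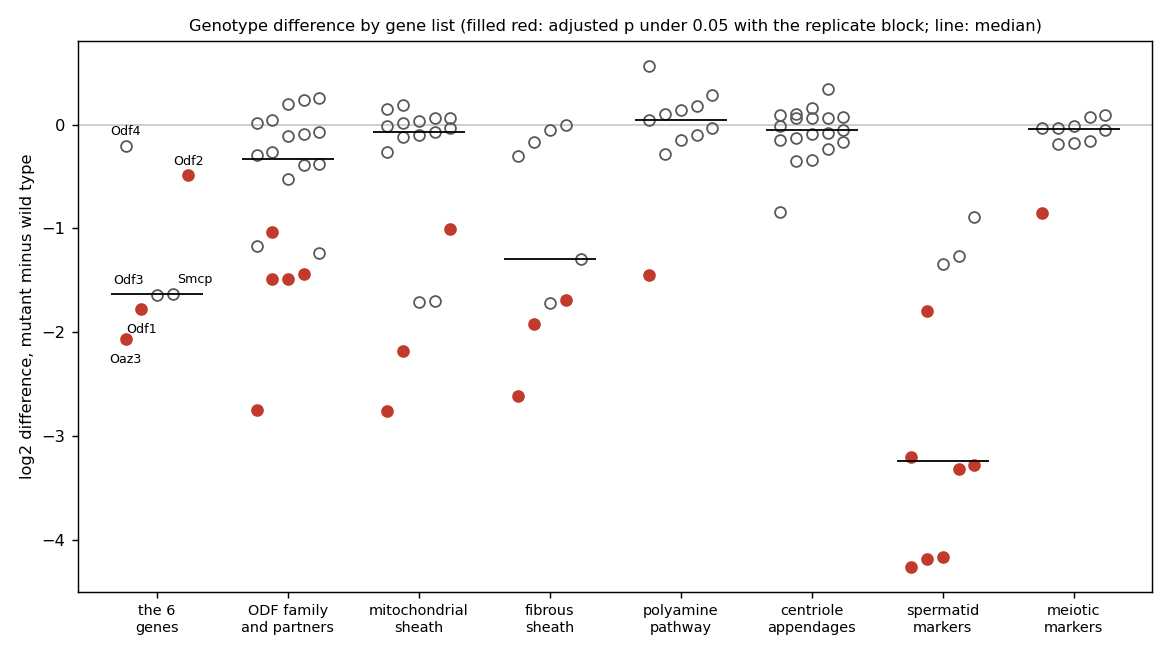
Log2 difference, mutant minus wild type (vertical axis), for the brightest probe set of each gene, by list; filled red points passed an adjusted p of 0.05 with the replicate block (limma), open points did not, and lines are medians. The 6 genes range from -0.21 for Odf4 to -2.07 for Oaz3, and the medians of the meiotic and spermatid markers are -0.04 and -3.24. Single spermatid markers range from -4.26 to -0.89, a range that holds Odf1, Odf3, Oaz3 and Smcp.

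Cell type markers set the levels of the 6 genes beside those of the cells that could carry them. All 10 spermatid markers had negative log2 differences, from -4.26 for Tnp2 to -0.89 for Spaca1, and 7 fell with the replicate block, 5 with the batch block and 1 without a block. Their median of -3.24 was -2.49 without mutant replicate 1, and Tnp2 stood at -3.50 without that mouse, unblocked. Of 10 meiotic markers 1 fell with either block, Pgk2, and the list summed to between 42915 and 50252 in mutants and between 46728 and 50994 in wild type. Markers of spermatogonia (8 measured), Sertoli (7), Leydig (4), peritubular (5) and macrophage (6) cells had no called gene in these 3 fits and list medians between 0.09 and 0.22. Of 5 endothelial markers Cldn5 rose with the batch block (limma, adjusted p = 0.0388).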

How the data were processed

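Whole testis RNA of 8 mice, 1 Affymetrix array per mouse, was measured. The deposited unit is linear intensity; GCOS is named in the submitters' processing notes, and which version or settings applied is not stated in what was used here. Each deposited array averages 500.0 once the top and bottom 2% are trimmed. Medians lay between 90.7 and 124. A common scaling keeps differences in distribution between arrays, and the number of arrays limits precision. Of 45037 probe sets other than AFFX controls, 34945 carried a single symbol, 932 more than 1 and 9160 had no name. Current names came from RefSeq (GRCm38.p6) by Entrez number for 34741.

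Values were taken as log2(intensity + 16), so fold changes of dim probe sets are understated, and 27022 probe sets with a mean above the 40th percentile (67.1) were tested with limma 3.58.1 in R 4.3.3 (intensity trend, two-sided, Benjamini-Hochberg over all tested probe sets, threshold 0.05). Responses of pairs of probe sets were compared by exact permutation over mice. The members, lists and alternatives were chosen with earlier results of these data known. Named were all members and for each gene the 3 nearest profiles outside the group. From each list other than the cell type markers, the called genes and up to 3 others of high signal were named. Armc12, Tbc1d21 and Gk2 fall outside this rule. Of the cell type markers, only the called meiotic and endothelial genes were named, with Tnp2 and Spaca1 as the ends of the spermatid range. The fit was tested on simulated data. Replicate numbers are shared between genotypes, and the labels state no pairing. Deviations from genotype means correlated between same-numbered mice (r from 0.519 to 0.618). Both genotypes share the split of replicates 1 and 2 from 3 and 4, and only 2 of 8 mice were closest to their own number. These correlations therefore do not show pairing within a batch, and the replicate block is an alternative fit. Figures were drawn with matplotlib 3.10.9.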

Additional observations from a re-analysis of the deposited data

Results flagged for a closer look

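The Smcp intensity of mutant replicate 1 stood apart from the other mutants. It read 686, where the 3 others read 3816, 3550.5 and 4694. On the log2 scale its gap to the nearest mutant was 0.854 of the group's whole range, above Dixon's 95% critical value for 4 samples. This was 1 flag among 36 groups of 4 examined, the 18 probe sets in each genotype, and chance flags about 1 group in 20. The same mouse was also the lowest mutant for Odf1, Odf3 and bright Oaz3 probe sets, without passing that limit, and its 10 spermatid markers summed to 2966.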

How the results depend on the processing

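Blocking by replicate number raised the count of probe sets called between genotypes to 646, against 31 without a replicate block, and the count of members called to 6, against 0. The batch block gave 485 and 4, and with mutant replicate 1 left out as well, an alternative added after seeing the data, 701 and 8. A pseudocount of 64 gave 58 probe sets, and replicates 1 and 2 alone gave 0. Leaving out 1 mouse without a block gave 0 to 119 probe sets (119 without mutant replicate 1, 12 without mutant replicate 2, 56 without wild-type replicate 4 and 0 without any other) and no member. With the replicate block, leaving out a number in both genotypes gave 540, 4, 14 and 967 probe sets for numbers 1 to 4 and 0 to 10 members: 7 members without number 1, 0 without number 2 or 3 and 10 without number 4. Pairs of genes that passed the permutation test numbered 0, and 10 without mutant replicate 4. Members called between batches numbered 2, against 1, with quantile normalization and with median centring. Of 403 values of single members under alternatives, 356 kept direction and side of the threshold, 35 newly passed it and 12 changed sign, all in uncalled dim probe sets. Odf2 1439918_at (0.13) was -0.05 with the replicate block and without number 1, -0.01 with the batch block and without mutant replicate 1, and -0.02 to 0.24 without single mice. Odf2 1444101_at (0.07) was -0.22 in replicates 1 and 2 alone, -0.20 with the replicate block and without number 4, and -0.13 to 0.30 without single mice. Oaz3 1453115_at (-0.22) was 0.10 in replicates 3 and 4 alone, 0.33 with the replicate block and without number 2, and -0.66 to 0.09 without single mice. The causes were not tested. The replicate block changed no member call beyond those given with each gene.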

Other observations

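Smcp belongs to the messages that spermatids store. Other such messages, and genes whose proteins bind or stabilise them, were set beside it, from a list written with earlier results of these data known. Of 14 measured genes on that list, whose median log2 difference was -0.30, 6 fell when blocked by replicate and 5 when blocked by batch. These were the cargo genes Prm1, Prm2, Prm3 (replicate block only), Tnp1 and Tnp2, together with Akap1, and of them Prm2 also fell without a block. Prm1, Prm2, Tnp1 and Tnp2 are also spermatid markers above, so their calls are counted in both lists. Prm3 had a log2 difference of -1.98, close to that of Oaz3, and Akap1, whose protein anchors kinase and RNA at mitochondria, averaged 627 in mutants and 2381 in wild type. Another Akap1 probe set, at -0.33, was not called. The 3 brightest uncalled genes encode proteins that bind RNA: Ybx2 averaged 14618 in mutants and 13921 in wild type, Ybx3 14433 in mutants and 14738 in wild type, and Pabpc2 9746 in mutants and 9747 in wild type.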
